A study of Mus musculus with 12 samples.

Results

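The phagocyte NADPH oxidase was described here through 5 of its genes, Cybb, Cyba, Ncf1, Ncf4 and Rac2, on arrays of mouse blood cells with and without Stat5. The members were the genes of the enzyme's working parts, taken by symbol and not by their values: a probe set counted when the array annotation gave it exactly 1 symbol and that symbol was a member's. This gave 10 of the 45101 probe sets and 5 of the 18194 genes with such a probe set. All 5 genes were above the level filter that left 10583 genes to test. Other subunits of the complex are not analysed here.

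RNA was hybridised to 12 one-colour Affymetrix arrays in 4 groups of 3. The groups were controls and mice lacking Stat5a and Stat5b (called knockouts), each with arrays whose titles end in a minus or a plus sign. The treatment protocols read the sign as given or not given CMP, whereas the titles of 8 arrays carry the letters CMP with either sign, so the labels do not settle whether CMP is an agent or the cells themselves. The groups are therefore called minus and plus, and the plus effect is only the difference between arrays so titled. The labels name blood cells and do not state the cell type, the age of the mice, the promoter or cell type in which the deletion was made, or whether the arrays of a group are separate animals. A p-value here thus reflects only how far these samples spread, which may be technical.

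Array titles follow 3 patterns, which define set A, set B and set C, and every group has 1 array in each. Signals are linear MAS5 values, tests were run on log2(signal + 32), and precision is limited by having 3 arrays a group. The brightest-probe signals of the targeted genes matched the titles on all 12 arrays. Stat5a lay at 660 to 1436 in controls and 28.9 to 90.1 in knockouts, and Stat5b at 1036 to 2177 and 7.28 to 82.8. The set B knockout minus array, which its treatment protocol calls a control, read 50.1 for Stat5a and 32.3 for Stat5b and was kept with the knockouts. Set B stood apart in the log2 ratio of 3' to 5' beta-actin probe signal, which rises as the RNA gets shorter. This ratio was 4.30 to 5.78 there and 0.25 to 2.14 elsewhere. It was higher on the plus than on the minus array in all 6 pairs of a set and genotype. Of the defining markers, the leukocyte gene Ptprc read 6938 to 15242 on all arrays, whereas the hepatocyte markers Alb, Ttr and Apoa1 and the T cell marker Cd3e were below the level filter. Other such markers were above it. Counted among those with a probe set, these were 1 of 5 T cell, 2 of 5 B cell and 1 of 3 NK cell markers. Also above it were 2 of 5 fibroblast and stroma and 3 of 4 endothelial markers.

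The oxidase transfers electrons from NADPH across a membrane to oxygen and makes superoxide, the start of the oxidative burst of neutrophils and macrophages. Cybb encodes the catalytic flavocytochrome subunit and Cyba its membrane partner. Ncf1, the organizer, and Ncf4, which binds phosphoinositides, wait in the cytosol and join the membrane pair on activation, together with the GTPase Rac2. Inherited loss of the flavocytochrome or the cytosolic subunits causes chronic granulomatous disease, and Stat5 carries signals of cytokines that drive myeloid growth.

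The 5 genes did not move as one unit. On plus arrays Ncf1 was higher and Rac2 lower in both genotypes, and Cybb, Cyba and Ncf4 did not pass the test in either. In controls, 1 of the 5 was called higher, against 10.6% of all tested genes, and 1 was called lower, against 11.6% (limma, Benjamini-Hochberg adjusted p under 0.05). In knockouts, 1 was called higher, against 9.03%, and 1 lower, against 9.72%. The minus and plus arrays did not overlap for 2 of the 5 members in controls, where 25.1% of all genes did not overlap, and for 2 of 5 in knockouts, where the share was 23.6%. The median change of the members was -0.01 in controls and 0.03 in knockouts on the log2 scale, beside -0.02 and -0.06 over all genes. With 5 genes, counts of 1 in each direction are no result about the family beside this background. With array medians made equal, the median over all genes became -0.28 in controls and -0.15 in knockouts, and the split of calls moved from 1119 higher and 1225 lower to 617 and 2114 in controls, and from 956 and 1029 to 651 and 1258 in knockouts. The arrays measured bulk RNA, in which fewer cells of a type and less RNA per cell cannot be told apart.

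**Figure D1:**
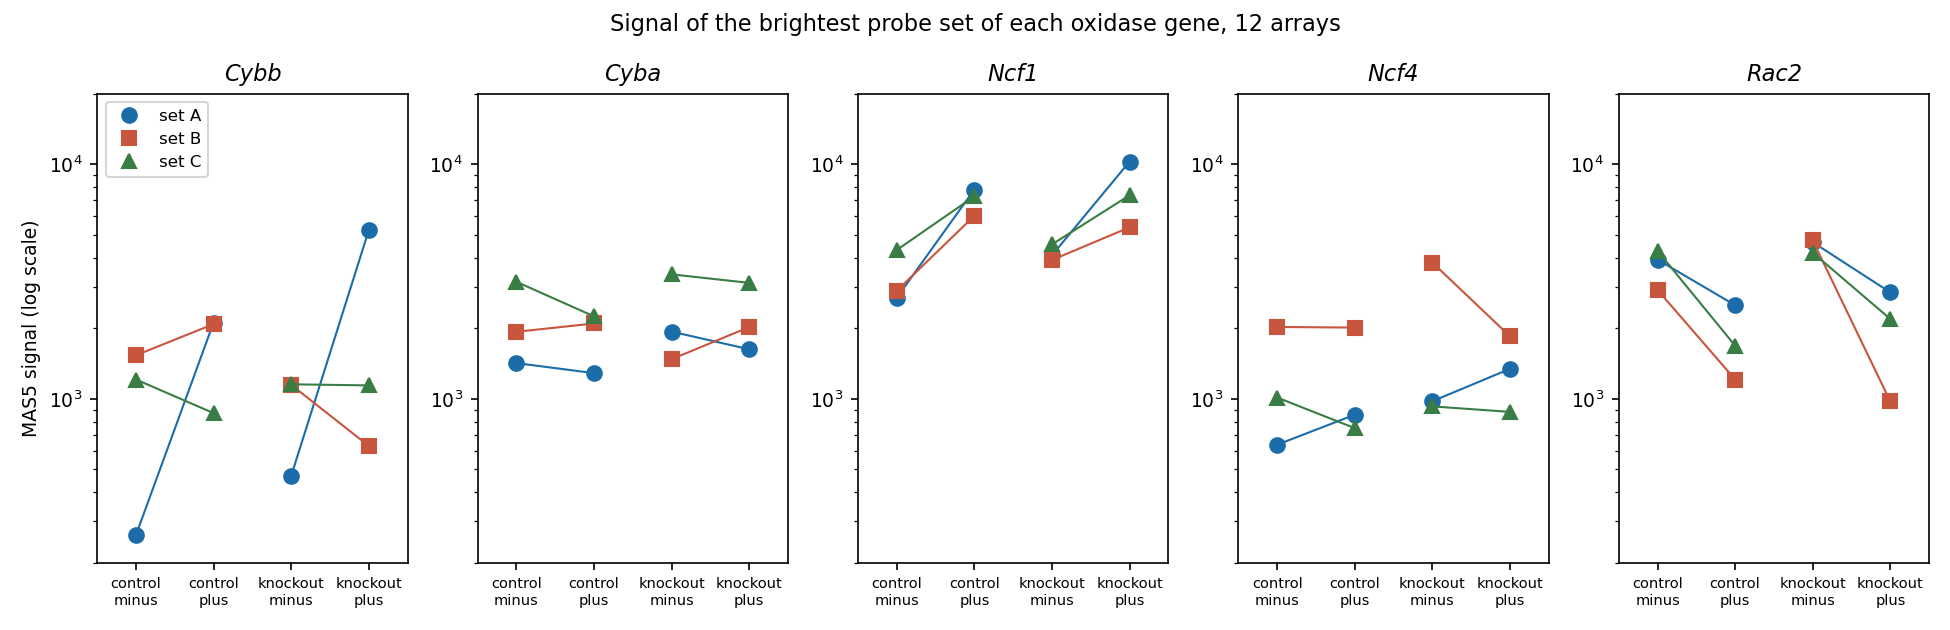
MAS5 signal (log axis) of the brightest probe set of Cybb, Cyba, Ncf1, Ncf4 and Rac2 on each of the 12 arrays, by group, with 1 symbol for each of sets A, B and C. Ncf1 lies between 2694 and 4548 on the minus arrays and between 5377 and 10256 on the plus arrays, Rac2 lies between 2910 and 4726 and between 974 and 2840, and the other 3 genes overlap.

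Ncf1 (chromosome 5, 134220053 to 134229628, GRCm38.p6) encodes the organizer subunit, whose phosphorylation triggers assembly. Its signal in sets A, B and C was 2694, 2885 and 4305 in control minus arrays and 7796, 6023 and 7292 in control plus arrays. In knockouts it was 4087, 3904 and 4548 on the minus arrays and 10256, 5377 and 7365 on the plus arrays. Every plus array was above every minus array of its genotype. The rise was 1.11 ± 0.21 on the log2 scale in controls (SE, n = 3, 2.16-fold, limma adjusted p = 0.00334) and 0.82 ± 0.21 in knockouts (1.77-fold, adjusted p = 0.0179). It was higher in 3 of 3 sets in each genotype, by 1.52, 1.05 and 0.76 in controls and 1.32, 0.46 and 0.69 in knockouts.

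The other Ncf1 probe sets were much dimmer, and levels are not compared between probe sets. Probe set 1451767_at rose by 1.31 ± 0.32 in controls (limma adjusted p = 0.0148) and differed by 1.01 ± 0.32 in knockouts (adjusted p = 0.0523). Probe set 1425609_at differed by 0.53 ± 0.33 in controls (adjusted p = 0.288) and by 0.78 ± 0.33 in knockouts (adjusted p = 0.134). All 3 probe sets thus had the same sign in both genotypes, and 1425609_at was lower on plus than on minus only in the control pair of set B, by -0.01. The rise in knockouts did not pass without set A (0.58, limma adjusted p = 0.141), without set C (0.89, adjusted p = 0.125), without the set A plus array (0.57, adjusted p = 0.0786), or without the minus array of set A (0.75, adjusted p = 0.0713) or set C (0.81, adjusted p = 0.0720). Counting the array with conflicting labels as a control gave 0.88 (adjusted p = 0.0549), fitting the knockouts alone gave an adjusted p of 0.0715, and with the beta-actin ratio in the model the change was 0.91 (adjusted p = 0.0646) in controls and 0.60 (adjusted p = 0.277) in knockouts.

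**Figure D2:**
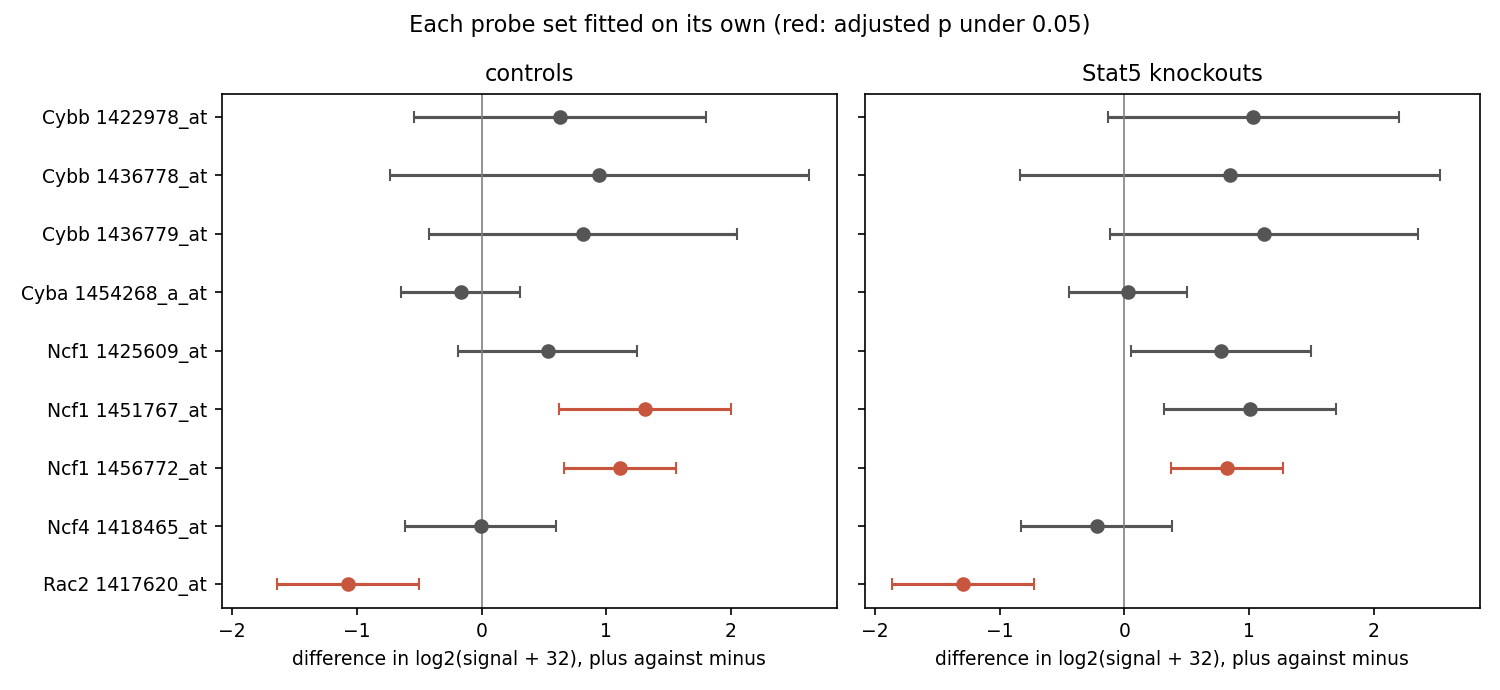
Change on the log2(signal + 32) scale, plus against minus arrays, for the 9 probe sets of the 5 genes above the level filter, in controls and knockouts. Points are fitted values, bars their 95% intervals, and red marks an adjusted p under 0.05: the 3 Ncf1 probe sets share a positive sign, and the intervals of all 3 Cybb probe sets cross 0.

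The start region of Ncf1 is shown because this gene rose and because Stat5 binds elements of the form TTCNNNGAA. The window runs from 250 bases before to 50 after the start, chr5:134229576-134229875, minus strand, RefSeq on GRCm38.p6, with that element in capitals:
Ncf1: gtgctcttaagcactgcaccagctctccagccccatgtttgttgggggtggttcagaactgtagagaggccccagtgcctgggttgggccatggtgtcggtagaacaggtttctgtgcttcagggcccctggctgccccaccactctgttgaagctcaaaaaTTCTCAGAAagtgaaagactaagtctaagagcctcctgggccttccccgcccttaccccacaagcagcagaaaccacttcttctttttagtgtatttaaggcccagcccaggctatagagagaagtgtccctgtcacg
The TTCTCAGAA lies 88 to 80 bases before the start, and TTCNNNGAA occurs on either strand in 8.3% of the 32851 windows of this length. GAGGAA, the core letters of the PU.1 element, and GATA were searched on both strands too and are not in this window. A match is a description of the letters, not a site shown to be used.

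Rac2 (chromosome 15, 78559169 to 78572783) encodes the blood cell GTPase that activates the assembled oxidase. Its signal in sets A, B and C was 3919, 2910 and 4269 in control minus arrays and 2504, 1208 and 1684 in control plus arrays. In knockouts it was 4648, 4726 and 4194 on minus arrays and 2840, 974 and 2187 on plus arrays. All plus arrays lay below all minus arrays of their genotype. Rac2 fell in both genotypes, with a change of -1.07 ± 0.26 on the log2 scale in controls (SE, n = 3, 2.10-fold lower, limma adjusted p = 0.0129) and -1.29 ± 0.26 in knockouts (2.45-fold lower, adjusted p = 0.00644), lower in 3 of 3 sets of each genotype. The set values were -0.64, -1.25 and -1.33 in controls and -0.70, -2.24 and -0.93 in knockouts, with the set B knockout pair farthest from 0. Its second probe set, 1440208_at, read only 31.7 to 129 and was below the level filter. That probe set was lower on plus arrays in all 3 control sets (-0.25, -0.39 and -0.17). In knockouts it was higher in 2 of 3 sets (0.08, -1.27 and 0.20). Averaging the probe sets ended the call in controls (-0.67, limma adjusted p = 0.0866) and knockouts (-0.81, adjusted p = 0.0532).

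The Rac2 call in controls did not pass without set C (-0.94, limma adjusted p = 0.162), or without the minus array of set B (-1.01, adjusted p = 0.0625) or set C (-0.98, adjusted p = 0.0657), or the plus array of set B (-1.01, adjusted p = 0.0561) or set C (-0.99, adjusted p = 0.0583). In knockouts it did not pass without set C (-1.47, adjusted p = 0.0585), with the conflicting array as a control (-1.04, adjusted p = 0.0568) or with the knockouts fitted alone (adjusted p = 0.0677). With the beta-actin ratio in the model it was -1.21 (adjusted p = 0.0595) in controls and -1.45 (adjusted p = 0.0598) in knockouts. Without set B, where that ratio was highest, both genes passed in both genotypes: Rac2 at -0.98 and -0.82, and Ncf1 at 1.14 and 1.01. With array medians made equal both kept their calls, at 0.84 and 0.73 for Ncf1 and -1.34 and -1.39 for Rac2.

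Within each array, the log2 difference of Ncf1 to Rac2 signal removes a scaling factor common to both. It was higher on the plus array in all 6 pairs, by 2.18, 2.33 and 2.10 in the controls of sets A, B and C and by 2.04, 2.74 and 1.63 in the knockouts. With Ncf1 higher and Rac2 lower in each pair, this sign was fixed by the values above and adds no support. The difference shows an unequal change of the 2 signals and not which of them moved. Because both genes were singled out after their changes were known, no test is given.

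**Figure D3:**
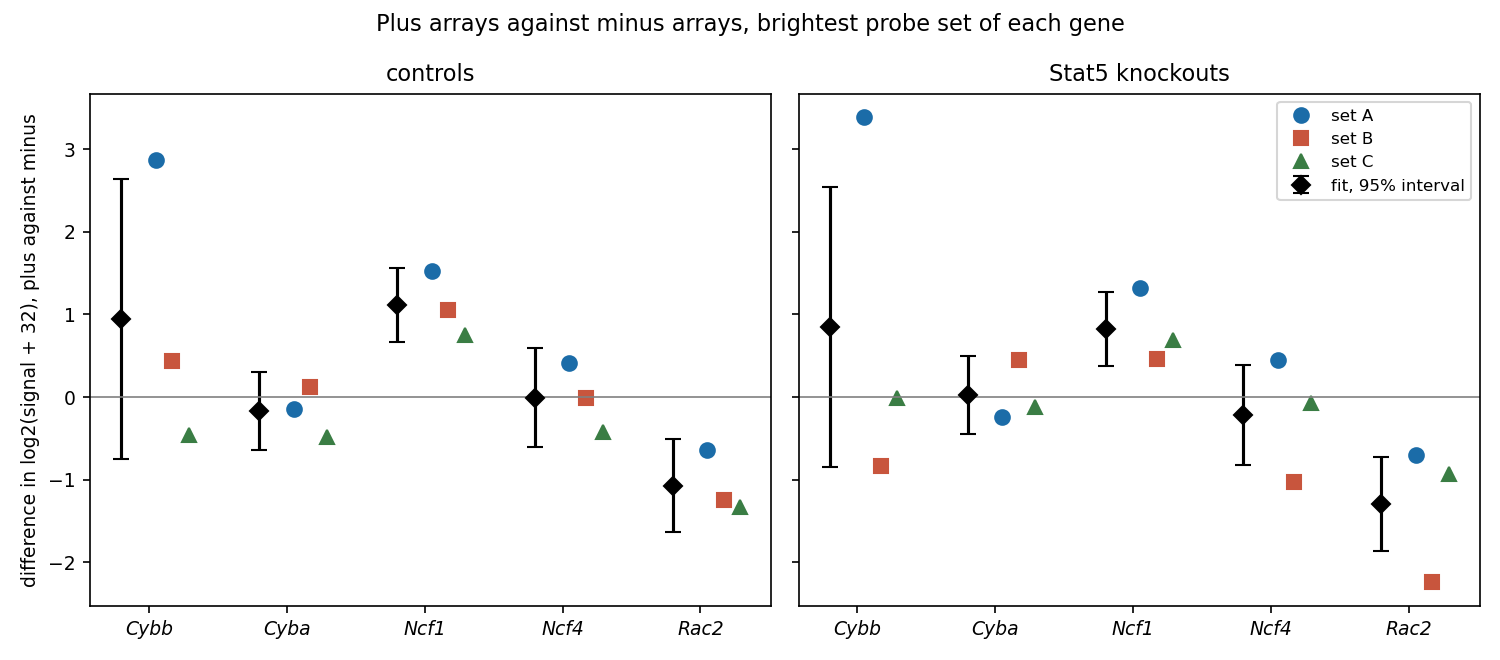
Change on the log2(signal + 32) scale, plus against minus arrays, for the brightest probe set of each of the 5 genes, with 1 point per set and the fitted value with its 95% interval, in controls and knockouts. The Ncf1 intervals lie above 0, the Rac2 intervals below 0, and the Cybb intervals run from -0.75 to 2.64 in controls and from -0.84 to 2.54 in knockouts.

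Cybb (chromosome X, 9435252 to 9487766) encodes the catalytic subunit and varied most between sets. Its signal in sets A, B and C was 263, 1533 and 1208 in control minus arrays and 2112, 2081 and 869 in control plus arrays. In knockouts it was 469, 1146 and 1152 on minus arrays and 5227, 629 and 1140 on plus arrays. The groups overlapped in both genotypes, and the lowest and highest values of all 12 arrays, 263 and 5227, were both in set A. The difference was 0.95 ± 0.78 in controls (limma adjusted p = 0.410) and 0.85 ± 0.78 in knockouts (adjusted p = 0.475). By set it was 2.86, 0.43 and -0.46 in controls and 3.39, -0.83 and -0.01 in knockouts.

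The same set stood apart on the other Cybb probe sets. In set A, 1422978_at differed by 1.83 in controls and 2.65 in knockouts, and 1436779_at by 2.06 and 3.11. In sets B and C the values of these 2 probe sets ran from -0.19 to 0.64. Without set A the fitted difference of the brightest probe set was -0.01 (limma adjusted p = 0.989) in controls and -0.42 (adjusted p = 0.571) in knockouts. Leaving out the set A control minus array alone turned the control value to -0.02, and leaving out the set A knockout plus array turned the knockout value to -0.33.

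The Cybb start region is printed because its PU.1 core lies next to the start. The window is chrX:9469275-9469574, minus strand, from the same RefSeq table, with the PU.1 core in capitals as it reads on this strand:
Cybb: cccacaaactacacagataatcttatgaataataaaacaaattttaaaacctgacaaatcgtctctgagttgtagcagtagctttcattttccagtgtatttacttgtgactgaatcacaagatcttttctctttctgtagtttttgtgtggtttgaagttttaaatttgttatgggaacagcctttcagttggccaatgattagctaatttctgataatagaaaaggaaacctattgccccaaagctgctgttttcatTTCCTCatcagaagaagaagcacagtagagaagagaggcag
TTCCTC, the reverse complement of GAGGAA, lies 9 to 14 bases after the start, and GAGGAA occurs on either strand in 28.3% of windows. The window holds GATA at 2 places, as 57.9% of windows hold it at least once, and no TTCNNNGAA. The annotated gene spans this window, so the start used is that of 1 of its transcripts.

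Cyba (chromosome 8, 122424771 to 122432940), the membrane partner that stabilises the catalytic subunit, had the narrowest range. Its signal in sets A, B and C was 1419, 1929 and 3152 in control minus arrays, 1286, 2094 and 2245 in control plus arrays, 1933, 1474 and 3391 in knockout minus arrays and 1625, 2021 and 3118 in knockout plus arrays. All groups overlapped, and set C was the highest set in every group. The plus difference was -0.17 ± 0.22 in controls (95% interval -0.64 to 0.30, limma adjusted p = 0.616) and 0.03 ± 0.22 in knockouts (-0.44 to 0.50, adjusted p = 0.943). Among its searched motifs, its start window holds GATA at 2 places and neither of the others.

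Ncf4 (chromosome 15, 78244164 to 78262582), the phosphoinositide-binding subunit, followed the sets more than the groups. Its signal in sets A, B and C was 637, 2023 and 1012 in control minus arrays, 855, 2010 and 750 in control plus arrays, 976, 3808 and 928 in knockout minus arrays and 1341, 1847 and 879 in knockout plus arrays. The 4 arrays of set B, 1847 to 3808, lay above the other 8, 637 to 1341. The plus difference was -0.01 ± 0.28 in controls (95% interval -0.61 to 0.60, limma adjusted p = 0.990) and -0.22 ± 0.28 in knockouts (-0.82 to 0.38, adjusted p = 0.611). In the same set the summed signal of 11 neutrophil markers was 95453 to 162341 on 3 of its arrays and 25365 on the knockout plus array, against 10996 to 42841 in sets A and C. The part of these markers, or of the beta-actin ratio, in the Ncf4 level was not tested.

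Loss of Stat5 gave no call for any oxidase gene. Between knockouts and controls, 0 of 5 members passed on minus arrays and 0 of 5 on plus arrays by limma, and none had an unadjusted p under 0.05. Over all genes 0.0189% were called on minus arrays and 0.0189% on plus arrays, in each case only Stat5a and Stat5b. Members whose groups did not overlap numbered 0 in both, against 4.32% and 5.66% of all genes.

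On minus arrays the knockout difference was 0.10 ± 0.78 for Cybb, 0.05 ± 0.22 for Cyba, 0.37 ± 0.21 for Ncf1, 0.46 ± 0.28 for Ncf4 and 0.30 ± 0.26 for Rac2 on the log2 scale. The limma adjusted p was 1.0 for each of the 5. Ncf1 was higher in 3 of 3 sets, by 0.60, 0.43 and 0.08, with a 95% interval of -0.08 to 0.82. Ncf4 was higher in 2 of 3, with an interval of -0.15 to 1.06. On plus arrays the differences ran from -0.00024 for Cybb to 0.25 for Cyba, with limma adjusted p from 0.627 to 1.0. The intervals for Ncf1, -0.37 to 0.53, and Rac2, -0.48 to 0.65, leave room for a change of either sign.

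**Figure D4:**
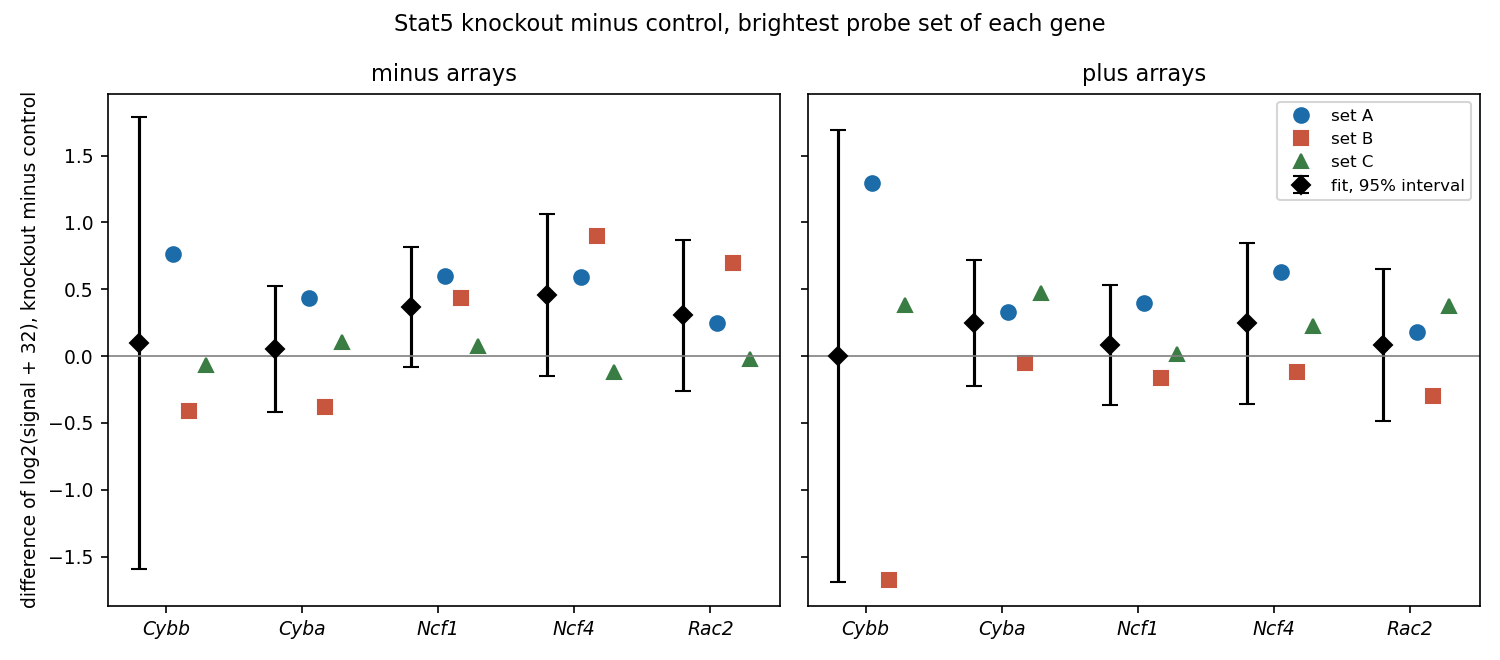
Difference on the log2(signal + 32) scale, knockout less control, for the brightest probe set of each of the 5 genes, on minus and on plus arrays, with 1 point per set and the fitted value with its 95% interval. Every interval crosses 0, and the widest is that of Cybb, from -1.6 to 1.79 on minus arrays.

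The plus effect was also compared directly between genotypes. The interaction called 0 of 5 members and 0% of all genes, with 223 of the 10583 genes and 0 members at an unadjusted p under 0.05 in limma. The plus effect in knockouts less that in controls was -0.29 for Ncf1 (95% interval -0.92 to 0.35) and -0.22 for Rac2 (-1.02 to 0.58). For Cyba and Ncf4 it was 0.20 and -0.21, and for Cybb -0.10 with an interval of -2.49 to 2.30. The smallest adjusted p of the 5 was 0.954, which does not show that the effects were alike.

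The genes whose signal most resembled that of each member were listed by Pearson r over the 12 arrays, which share sets and groups, as a description. Ncf1 was most like Cd83, an activation marker of antigen-presenting cells (0.946), Tmcc3 (0.921) and Birc3 (0.920). Rac2 was most like Naxe (0.981), Man2b1 (0.971) and Cmtm7 (0.970). Both sets of values were as high or higher after each set's mean was removed, at 0.960, 0.938 and 0.969 for Ncf1 and 0.982, 0.979 and 0.980 for Rac2.

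Cybb was most like Slfn5 (0.897), the chemokine Cxcl16 (0.875) and Rnf41 (0.848). Ncf4 was most like Inpp5j (0.957), Plac8 (0.949) and Vipas39 (0.945), and Cyba was most like the monocyte chemokine receptor Ccr2 (0.866), Uqcc3 (0.863) and Tmem101 (0.853). For Ncf4 and Cyba these fell once set means were removed, to 0.813, 0.852 and 0.826 and to 0.616, 0.571 and 0.728. Among the members the closest pair was Cybb and Ncf1 (0.647), the most opposed was Ncf1 and Rac2 (-0.462), and with set means removed these were 0.703 and -0.662.

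Partners and homologues of the oxidase gave no call. Of 14 written, 9 had a probe set of their own and 4 passed the level filter: Rac1, the widely expressed relative of Rac2, Cybc1, a chaperone of the membrane pair, Hvcn1, the proton channel that balances the charge of the burst, and Rap1a, a GTPase found with the flavocytochrome. In limma 0 of the 4 were called in either direction in any comparison. Over all tested genes 10.6% were called higher and 11.6% lower in controls, and 9.03% and 9.72% in knockouts. Between genotypes 0.0189% were called on minus and on plus arrays, and 0% in the interaction. Beside these shares, 0 of 4 is no result about the partners. At an unadjusted p under 0.05 were Rac1 and Rap1a in the knockout plus comparison and Cybc1 in 2 others. On its brightest probe set Rac1 differed by -0.22 ± 0.20 in controls (adjusted p = 0.447) and -0.47 ± 0.20 in knockouts (adjusted p = 0.112). That was a smaller difference in size than that of Rac2 in each genotype, although the 2 genes were not tested against each other. Another bright Rac1 probe set, at 2653 to 8737, did not share this sign. Its mean log2 value was 12.04 on minus and 12.13 on plus arrays in controls, and 12.27 and 12.36 in knockouts. The Rac1 values and p-values given here thus hold for its brightest probe set only. Rap1a differed by 0.10 and 0.37, Hvcn1 by 0.32 and 0.51, and Cybc1 by 0.43 and -0.46. On minus arrays the knockout difference of Cybc1 was 0.61 ± 0.24 (unadjusted p = 0.0276, adjusted p = 1.0), and its interaction was -0.89 ± 0.34 (unadjusted p = 0.0238, adjusted p = 0.954).

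Among the kinases, Rac exchange factors and other regulators that lead to the oxidase, 23 of 28 were tested. In controls 0 rose and 1 fell, with a median difference of 0.05, and in knockouts 0 were called, with a median of -0.08. Over all tested genes 10.6% were called higher and 11.6% lower in controls, and 9.03% and 9.72% in knockouts. The 1 call was Tiam1, a Rac exchange factor, at -0.85 ± 0.28 (limma adjusted p = 0.0497), lost in 19 of 29 alternatives. In knockouts Tiam1 was at -0.74 ± 0.28 (adjusted p = 0.0855), Dock2, the main Rac activator of leukocytes, was at -0.50 in controls (adjusted p = 0.0514) and -0.33 in knockouts, and Prkcd, a kinase of Ncf1, was at 0.55 (adjusted p = 0.190) and 0.11.

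Of 12 myeloid transcription factors 11 were tested, with 1 higher and 0 lower in controls and 0 called in knockouts. The shares over all genes are those just given for the regulators. Cebpb, a factor of emergency granulopoiesis and macrophage genes, rose by 1.21 ± 0.35 in controls (limma adjusted p = 0.0279), lost in 11 of 29 alternatives, and differed by 0.43 in knockouts (adjusted p = 0.410). Spi1, which encodes PU.1 and drives several oxidase genes, was at 0.77 ± 0.35 in controls (adjusted p = 0.136) and 0.17 in knockouts. Irf8, a factor of the monocyte lineage that acts on Cybb, was at -0.80 ± 0.43 (adjusted p = 0.206) and -0.47.

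**Figure D5:**
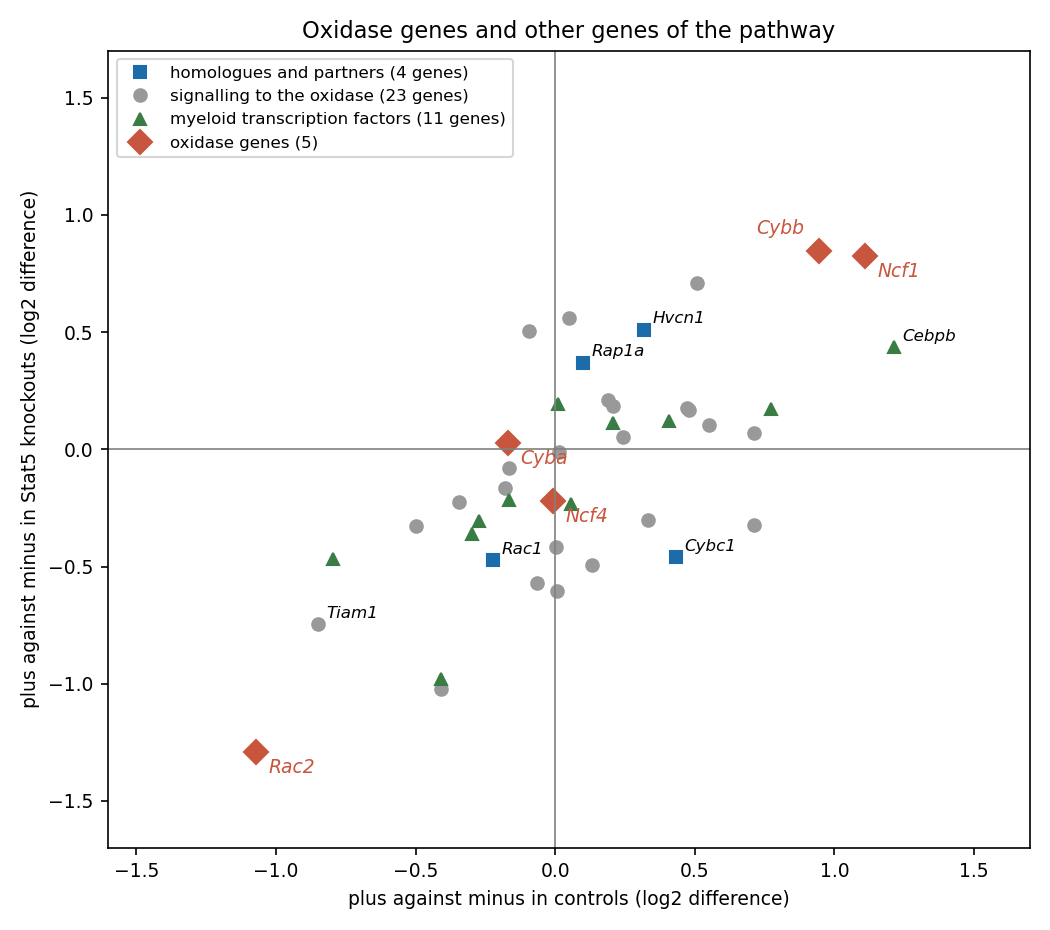
Change on the log2 scale, plus against minus arrays, in controls (x axis) and knockouts (y axis) for the 5 oxidase genes and for the tested partners, regulators and transcription factors. Ncf1 lies at 1.11 and 0.82 and Rac2 at -1.07 and -1.29, whereas no other gene shown was called in both genotypes.

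Most erythroid markers, and some markers of other blood cell types, differed between the same plus and minus arrays. Beside the marker counts here and below, 10.6% of all tested genes were called higher and 11.6% lower in controls. In knockouts these shares were 9.03% and 9.72%. Counts of 1 in a short list are no result about a cell type beside this background. Of 7 tested erythroid markers 5 fell in controls and 6 in knockouts, among them Car1, a red cell carbonic anhydrase, at -3.5 and -3.74. The summed erythroid signal was 9811 to 44419 in control minus, 3182 to 6342 in control plus, 8371 to 24748 in knockout minus and 1204 to 3341 in knockout plus arrays. Of 6 mast and basophil markers 1 and 2 fell, including the protease Cpa3 (-2.02 and -1.92), and the cytotoxic granule gene Nkg7 fell, at -2.02 and -1.96.

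Of 6 tested dendritic cell markers 1 rose and 0 fell in controls, and 1 rose and 1 fell in knockouts. Batf3, a transcription factor of dendritic cells, rose by 2.35 ± 0.38 in controls (limma adjusted p = 0.00176), a call kept in 28 of 28 alternatives. Batf3 was not called in knockouts, where no tested dendritic marker was above 1.28. In the interaction 0 of the 6 were called. In knockouts Cd74, the invariant chain of antigen presentation, rose by 1.28 and H2-Ab1, a class II molecule, changed by -0.83, calls lost in 11 of 28 and 9 of 29 alternatives. The summed dendritic signal overlapped, at 3243 to 9866 in control minus, 3744 to 7996 in control plus, 4665 to 9072 in knockout minus and 5144 to 7337 in knockout plus arrays. Of 6 megakaryocyte markers 1 fell in each genotype, the platelet glycoprotein gene Gp9, at -1.25 and -1.43.

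Among markers of phagocytes, in which the oxidase is best known, those of neutrophils and of primary granules were mostly below 0 and those of monocytes were of both signs. Of 10 tested neutrophil markers 1 had a positive difference in controls, with a range of -1.08 to 0.45 and a median of -0.33, and 0 had one in knockouts, with a range of -1.85 to -0.62 and a median of -1.12. Called were 0 in controls and 1 in knockouts, the granule peptide gene Camp, at -1.47, a call lost in 10 of 29 alternatives. Of 5 primary granule markers 0 had a positive difference in either genotype, and the median was -0.61 in controls and -0.60 in knockouts. Called lower were 2 in each: Ctsg and Prtn3 in controls, at -0.97 and -0.61, and Ms4a3 and Prtn3 in knockouts, at -1.48 and -0.60. The Prtn3 call was lost in 15 of 29 alternatives in controls and 22 of 29 in knockouts, and those of Ctsg and Ms4a3 in 6 of 29 each.

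Of 7 tested monocyte and macrophage markers 1 rose and 1 fell in each genotype: the endotoxin receptor Cd14 at 2.03 and 1.85 and the coagulation factor F13a1 at -1.96 and -1.49. Their summed signal overlapped, at 8763 to 20078 in control minus, 8569 to 16413 in control plus, 17249 to 25711 in knockout minus and 16939 to 31363 in knockout plus arrays. Beside the shares over all genes given above, counts of 1 in 7 are no result about these cells. Of 5 tested pan-leukocyte markers 1 rose and 0 fell in each genotype, Ptprc in both. Ptprc rose by 0.49 in controls, a call lost in 17 of 29 alternatives, and by 0.78 in knockouts, lost in 5 of 29. Positive were 4 of the 5 in controls and 2 of the 5 in knockouts, with medians of 0.34 and -0.01. Between knockouts and controls on plus arrays, 0 of 10 neutrophil and 0 of 7 erythroid markers had a positive difference, with medians of -0.81 and -0.86. Positive there were 5 of 7 monocyte and 4 of 5 primary granule markers, and none of these markers was called. The part of these cell types in the Ncf1 and Rac2 changes, or in the comparisons between genotypes, was not tested.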

How the data were processed

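The authors deposited a linear intensity for every probe set, computed with MAS5 per the submitters' processing notes; version and scaling target are not given in the sources used here. Each array had a trimmed mean (2% at each end) of 500.0. The 34958 probe sets with 1 symbol in the supplied annotation were used (34754 matched GRCm38.p6 by gene number), each gene by its brightest probe set. Values were log2(signal + 32), so changes of dim genes are understated, and a gene was tested if its mean reached 6.76, the median over probe sets. Array medians were 59.7 to 114.

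One limma 3.58.1 fit (R 4.3.3, eBayes with a trend) over 12 arrays held the 4 groups and the set as a block, with 6 residual and 5.78 prior degrees of freedom. Tests were two-sided, adjusted by Benjamini-Hochberg over all 10583 genes, and called at 0.05. The titles carry no replicate numbers; deviations from group means had r of 0.41 to 0.77 in 18 same-set pairs and of -0.64 to 0.28 in 36 others, so the block was kept as the pairing. Without it, Ncf1 did not pass in knockouts (adjusted p = 0.156) nor Rac2 in controls (0.138) or knockouts (0.0979).

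The named genes were the 5 members, the 3 genes most alike to each, called members of the partner and marker lists and key partners. The members and lists were chosen with earlier results of these data known. The chain was tested on simulated data. Alternatives covered the constant, scaling, filter, probe sets, block, left-out sets and arrays, the conflicting label, array weights, the variance prior and the arrays fitted. The beta-actin covariate was chosen after seeing the data.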

Additional observations from a re-analysis of the deposited data

How the results depend on the processing

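The number of oxidase genes called, 2 in each plus comparison, became 1 in both with the mean of all probe sets and, without the set as a replicate block, 1 in controls and 0 in knockouts, where calls over all genes fell to 470 and 298. It became 0 in both with the beta-actin ratio, and 0 in knockouts with the conflicting array as a control or only the arrays compared. Leaving out 1 set or array gave 1 to 2 in controls and 0 to 2 in knockouts. Over all genes 22.1% were called in controls and 18.8% in knockouts in the main fit. These shares were 21.7% and 17.5% with the mean of probe sets and 14.4% and 6.14% with the beta-actin ratio. In knockouts 9.18% were called with the conflicting array as a control and 6.26% with only the arrays compared. With 1 set or array left out the shares were 5.4% to 32.6% in controls and 3.36% to 25% in knockouts. The cause was not tested. The other settings kept 2, and no setting called a member between genotypes or in the interaction. Neither Ncf1 nor Rac2 turned sign in a plus comparison.

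Values that turned sign were all uncalled. For Cyba the plus difference was 0.071 in controls with the beta-actin ratio, and in knockouts -0.066 with equal medians, -0.20 with the conflicting array as a control and -0.11 with array weights, which gave 0.18 for Ncf4. On minus arrays the knockout difference of Cybb was -0.13 with the mean of probe sets, -0.17 with the conflicting array as a control, and -0.40 and -0.079 on 1422978_at and 1436779_at; Ncf1 was -0.00048 on 1425609_at and Rac2 -0.15 with the conflicting array. On plus arrays Cybb was 0.015 with a constant of 100, 0.26 with equal medians, 0.057 with quantile normalization, 0.079 with the mean, 1.43 with weights, and 0.010 and 0.23 on its other probe sets. In the interaction Cybb was 0.073 (medians), 0.21 (mean), 0.17 (conflicting array), 1.01 (weights), 0.41 and 0.31 (other probe sets); Cyba was -0.13 (conflicting array), Ncf1 0.25 (1425609_at), Ncf4 0.22 and Rac2 0.23 (conflicting array), and 0.18 and 0.19 (weights).

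Leaving out 1 set or array turned the sign within these ranges. Plus comparisons in controls gave -0.022 to 1.65 for Cybb and -0.23 to 0.23 for Ncf4, and in knockouts -0.42 to 1.77 for Cybb, -0.23 to 0.20 for Cyba and -0.55 to 0.19 for Ncf4. Knockout differences on minus arrays gave -0.87 to 0.63 for Cybb, -0.14 to 0.32 for Cyba and -0.013 to 0.49 for Rac2, and on plus arrays -1.18 to 0.92 for Cybb, -0.17 to 0.23 for Ncf1, -0.065 to 0.50 for Ncf4 and -0.12 to 0.40 for Rac2. The interaction gave -1.27 to 0.87 for Cybb, -0.066 to 0.41 for Cyba, -0.52 to 0.19 for Ncf4 and -0.53 to 0.17 for Rac2. Of 890 values of the other 31 named results, 184 lost the call and 0 turned sign. Dim probe sets limit Rac2 to 1 probe set.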
